A study of Rattus norvegicus with 24 samples.

Results

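Some CpGs of the rat kidney, each taken on 1 DNA strand, were read in every rat of one strain and in no rat of the other. They were chosen on measured coverage, the number of bisulfite reads over a CpG. A CpG on 1 of the 20 autosomes was called BN-only when it had a coverage of at least 10 in all 6 Brown Norway (BN) libraries and no line in any of the 6 libraries of the other strain, CD. CD-only CpGs met the same rule with the strains exchanged. Of 2522124 autosomal CpGs with a line in any library, counted by strand, 12294 were BN-only and 4959 were CD-only. The 396151 CpGs with a coverage of at least 10 in all 12 libraries, called shared here, served for comparison. The deposited lists begin at a coverage of 5, so a CpG without a line had fewer than 5 reads, not necessarily none.

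Reduced representation bisulfite sequencing (RRBS) cuts DNA with MspI, an enzyme that recognises CCGG whether or not its inner cytosine is methylated, and reads inward from the ends of the resulting fragments. Bisulfite converts unmethylated cytosine and leaves methylated cytosine, so the percent of reads that still show C is the methylation level. A CpG is therefore read where an MspI site lies close by, where the fragment has a length that the library retains and where the reads align to the reference. In mammalian genomes most CpGs are methylated, while dense CpG islands at promoters are mostly free of methylation.

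Kidney cross-sections came from female CD (Sprague Dawley) and BN rats, non-pregnant (NP) or at pregnancy day 18 (P18), with 3 rats in each of the 4 groups. The labels give an age of 6-8 weeks in one field and of 2 months in another. No gene was modified and no compound was given, and BN rats served the study as a model of a complicated pregnancy. BN is an inbred strain, CD is an outbred stock, and the reference Rnor6.0 was assembled from a BN-strain rat. A kidney section mixes many cell types, so fewer methylated cells and less methylation per cell cannot be told apart. The labelled tissue was not checked against marker genes, because no table used here pairs the Ensembl identifiers of the RNA-seq counts with gene symbols.

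The coverage summed over autosomal CpGs, which counts a read at each CpG it covers, was lowest in CD-NP replicate 3 (21234830) and highest in BN-NP replicate 3 (43848038). The strains did not keep this order at both stages. At NP the sums were 36566161 to 43848038 in BN and 21234830 to 36148705 in CD. At P18 they were 28822201 to 31038627 in BN and 33336058 to 42199287 in CD. CpGs with a coverage of at least 10 in all 6 libraries numbered 881939 in BN and 675439 in CD. The libraries also differed in the fragment lengths that they covered. Relative to fragments of 101 to 120 bases, fragments of 201 to 250 bases had a coverage of 0.392 to 0.771 in the BN libraries with a median of 0.677, and of 0.160 to 0.706 in the CD libraries with a median of 0.40. BN-NP replicate 3 had the lowest of the BN values, and CD-P18 replicate 2 had the highest of the CD values. The part of these length profiles in the membership of the sets was not tested.

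The BN-only CpGs were 1.39% of the CpGs covered in BN and the CD-only CpGs were 0.734% of those covered in CD. These shares describe the rule itself and carry no test. Among CpGs covered in all 6 CD libraries, 200 had a line in 1 BN library and 734 had a line in 2, against 4959 with none. Among CpGs covered in all 6 BN libraries, 5097 had a line in 1 CD library and 5795 had a line in 2, against 12294 with none. The CD-only CpGs were thus set off from the CpGs with a few BN lines, with 18.8 CpGs at 1 or 2 BN lines for each 100 members. The corresponding number for BN-only CpGs was 88.6, so the BN-only set graded into CpGs that a few CD libraries had reached.

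**Figure D1:**
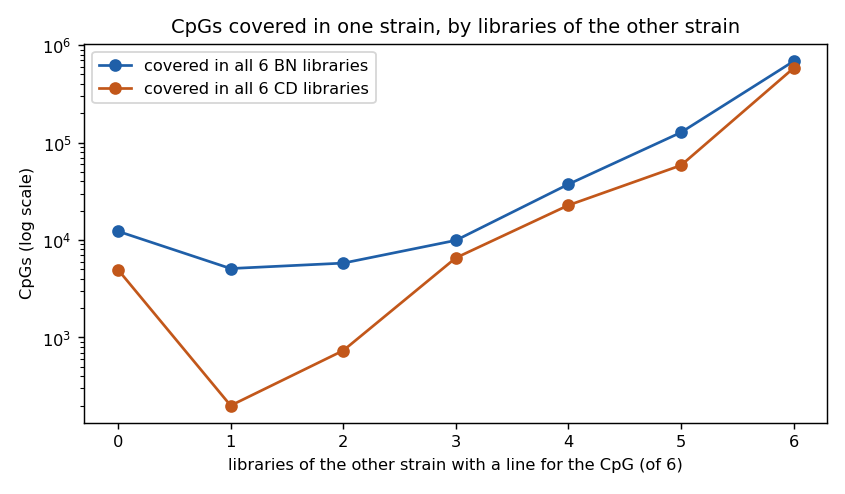
The horizontal axis gives the number of libraries of the other strain that hold a line for a CpG, and the vertical axis (log scale) the number of CpGs covered at 10 or more in all 6 libraries of the strain named in the key. The CD curve falls from 4959 CpGs at 0 libraries to 200 at 1, while the BN curve falls from 12294 to 5097.

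The CpGs just inside and just outside the rule were as follows. Where a BN-covered CpG had a line in a single CD library, that line was in CD-P18 replicate 2 for 1469 CpGs and in CD-NP replicate 3 for 296, at median coverages of 11 and 7. Where a CD-covered CpG had a line in a single BN library, 82 of the 200 lines were in BN-NP replicate 3, at a median coverage of 12.5, and the other libraries held 17 to 35 each at medians of 5 or 6. On the covered side, 1311 BN-only CpGs had a lowest coverage of exactly 10, and 1528 CpGs without any CD line were just outside with a lowest coverage of 9. For CD these counts were 987 and 1131.

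Applied to stage over both strains, the same rule found no CpG. None of 691483 CpGs covered in all 6 NP libraries lacked a line in all 6 P18 libraries, and none of 811667 CpGs covered in all 6 P18 libraries lacked one in all 6 NP libraries. Within a strain, with 3 libraries against 3, such CpGs did occur. In BN, 7011 of 1292677 CpGs were NP-only (0.542%) and 21 of 1020754 were P18-only (0.00206%). In CD, 257 of 942885 were NP-only (0.0273%) and 3067 of 1198121 were P18-only (0.256%). A CpG found over both strains must also be found within each, so at most 257 NP-only and 21 P18-only CpGs were possible. The count of 0 over both strains is therefore no control for the strain sets. The strain rule with 3 libraries against 3 gave 7874 to 28167 CpGs. CpGs chosen by it at one stage were then read in the rats of the other stage, which that choice had not used, for the absence and the coverage in turn. Of 7874 CpGs that were CD-only among NP rats, 98.1% had no line in any BN-P18 library, against 5.76% of all CpGs covered in the CD-NP libraries. Of 18732 CpGs that were BN-only among P18 rats, 82.1% had no line in any CD-NP library, against 3.50% of all CpGs covered in the BN-P18 libraries. The absence was less frequent for the other pair of choices. Of 28167 CpGs BN-only among NP rats, 56.7% had no line in any CD-P18 library (1.55% of all CpGs covered in BN-NP), and of 20887 CpGs CD-only among P18 rats, 63.1% had none in BN-NP (1.13% of all CpGs covered in CD-P18). In these last sets 15.9% and 31.1% of the CpGs had a line in all 3 libraries of the other strain. A coverage of at least 10 in all 3 libraries of their own strain was found again at 64.3% of the CpGs CD-only at NP and 51.6% of those CD-only at P18, against 71.6% and 56.4% of all CpGs covered in those CD libraries. For CpGs BN-only at NP and at P18 these shares were 73.6% and 80.9%, against 68.2% and 86.4%.

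One-strain CpGs stood in small groups. Joined wherever neighbouring members lay at most 100 bases apart, the BN-only CpGs formed 5421 clusters and the CD-only CpGs formed 2258. Single CpGs made up 46.6% of the BN-only and 45.3% of the CD-only clusters, against 30.7% of the 109442 clusters of shared CpGs. The mean number of CpGs in a cluster was 2.27 in the BN-only, 2.20 in the CD-only and 3.62 in the shared set. Only CpGs of the set itself were counted, so other covered CpGs could lie within or beside a cluster. Sizes are therefore not a like measure between the sets. Large clusters held few of the members. Clusters of at least 11 CpGs held 4.49% of BN-only CpGs and 1.98% of CD-only CpGs, against 23.5% of shared CpGs. When gaps of up to 300 bases were allowed, the BN-only clusters fell to 4553 and the CD-only clusters to 2222.

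**Figure D2:**
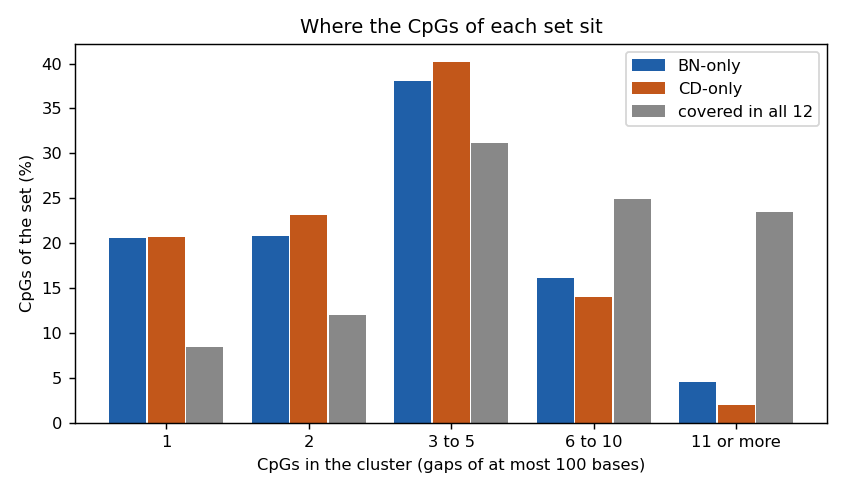
Bars give the percent of the CpGs of each set (vertical axis) that stand in clusters of the size on the horizontal axis, for BN-only, CD-only and shared CpGs. The largest bars of the BN-only and CD-only sets are at 3 to 5 CpGs (38.1% and 40.2%), and the shared set has 23.5% of its CpGs in clusters of 11 or more.

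Most clusters lay on one strand, in the shared set too. Several CpGs on one strand formed 41.3% of the BN-only, 37.6% of the CD-only and 42.6% of the shared clusters, beside the single CpGs. Clusters with plus-strand CpGs to the left of minus-strand CpGs, the order in which the ends of one fragment are read, made up 8.06% of the BN-only, 12.8% of the CD-only and 17.6% of the shared clusters. Their median spans were 126 bases (quartiles 105 and 149) and 77.5 bases (quartiles 53 and 97.25), while such clusters of shared CpGs spanned 113 bases (quartiles 98 and 131).

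The BN-only cluster with the most CpGs lay at chr1:11906237-11906335 in Rnor6.0 and held 22 CpGs, all on the plus strand. It was read far more deeply than most members, with coverages of 284 to 2557 over its CpGs and rats. The median mean coverage of BN-only CpGs was 22.3, and the highest, 2771, was at a CpG outside this cluster. The methylation level of the cluster was 17.9, 13.6 and 22.6% in the 3 NP rats and 17.4, 3.49 and 35.3% in the 3 P18 rats. The P18 rats held both the lowest and the highest level, so the stages overlapped. The third-ranked cluster, of 20 CpGs, lay close by at chr1:11907464-11907560. There the levels were 26.4, 17.4 and 28.8% in the NP rats and 29.5, 3.44 and 47.4% in the P18 rats. P18 replicate 2 was again the lowest and P18 replicate 3 the highest.

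Other large BN-only clusters were less deeply covered. The cluster at chr20:5375388-5375563 held 21 CpGs with coverages of 10 to 44 and levels of 0.144 to 1.61% over the 6 BN rats. Another, at chr20:5414868-5414991, held 18 CpGs with levels of 0 to 0.610%. A CD line stood 1 base away from a member CpG of each of these clusters. The fifth, at chr1:1627125-1627399, held 17 CpGs with levels of 34.7 to 44.4%, and its nearest CD line was 2830 bases away. Of the 5 BN-only clusters with the most CpGs, 2 were thus nearly unmethylated in all 6 rats, and 3 were partly methylated.

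All of the 5 CD-only clusters with the most CpGs were nearly unmethylated. The cluster at chr10:94681828-94681876 held 15 CpGs, and its levels were 0.889, 0.870 and 0% in the NP rats and 0.202, 1.16 and 0% in the P18 rats. The 15 CpGs at chr8:108957607-108957710 had levels of 0 to 0.471%, the 12 at chr20:4934949-4935016 levels of 0.754 to 1.97%, the 12 at chr12:52506795-52506901 levels of 0 to 0.595% and the 11 at chr14:33580063-33580201 levels of 0.267 to 1.18%. The first 4 had a BN line 1 base away and the last had one 414 bases away. Of clusters with at least 6 CpGs, 83 of 325 BN-only clusters and 42 of 108 CD-only clusters had a mean level under 10%. Which genes lie at these positions was not determined, since no annotation of this build was used.

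Many one-strain CpGs lay far from the reads of the other strain. The nearest line of the other strain, on either strand, was a median of 216 bases from a BN-only CpG and 364 bases from a CD-only CpG. For CpGs covered in BN or CD that were read in both strains, these medians were 7 and 1 bases. No line of the other strain lay within 1000 bases of 36.8% of the BN-only CpGs and 37.1% of the CD-only CpGs. This held for 0.273% and 0.104% of the covered CpGs with a line in the other strain. Members were chosen for lacking a line of the other strain, and the comparison CpGs for having one. A read can cover neighbouring CpGs, so this contrast was partly set by the choice and carries no test. A second kind of member sat beside the reads of the other strain. For 9.77% of BN-only and 18.8% of CD-only CpGs, the other strain had a line at the adjoining base. Lines of the other strain within 50 bases on both sides, on the member's own strand, were found at 217 BN-only (1.77%) and 102 CD-only CpGs (2.06%). This share was not computed for covered CpGs outside the sets, and the choice of members partly sets it too.

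Long stretches without any line of the other strain were few in both sets, and most of them were BN-only. Stretches that held members and no line of the other strain numbered 5246 in BN and 2722 in CD. Of these, 46 in BN and 6 in CD spanned more than 10 kb. They held 259 of the 12294 BN-only CpGs and 19 of the 4959 CD-only CpGs. The BN-only set was the larger, so the raw counts alone overstate the contrast. The longest in BN ran over chr2:154815976-155074471, or 258496 bases, with 7 members in 5 clusters, a mean coverage of 27.3 and a mean level of 80.3%. The next in length were chr5:51501911-51635680 and chr18:9953595-10075520, with 3 members each and mean levels of 73.3 and 81.0%. The longest in CD ran over chr18:6411946-6429549, or 17604 bases, with 4 members and a mean level of 89.9%. It was followed by chr6:140541615-140558298 with 2 members and chr14:32077702-32092562 with 4, at mean levels of 70.1 and 91.0%. Members were sparse in all of these stretches, and most were highly methylated.

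Both sets occurred on all 20 autosomes. BN-only CpGs made up 0.431% of the covered CpGs on chromosome 10 and 2.68% on chromosome 14, the lowest and the highest share. CD-only CpGs ranged from 0.343% on chromosome 13 to 1.36% on chromosome 17. Of 2627 windows of 1 Mb, 1427 held a BN-only CpG, 1085 held a CD-only CpG and 843 held both. The shared windows were 59.1% of the BN-only windows and 77.7% of the CD-only windows. The window at chr20:5000001-6000000 had the most members of both sets, 71 of 1799 covered CpGs being BN-only (3.95%) and 34 of 1335 being CD-only (2.55%). Among the 3 windows with the most members of each set it had the lowest share. The BN-only share was 12.2% at chr14:37000001-38000000 and 8.20% at chr8:130000001-131000000, and the CD-only share was 6.62% at chr7:137000001-138000000 and 6.19% at chr5:145000001-146000000. A CD-only CpG lay within 100 bases of 88 BN-only CpGs (0.716%), and a BN-only CpG lay within 100 bases of 93 CD-only CpGs (1.88%). The same share was not computed for all covered CpGs, so these values do not show whether members of the sets lay apart.

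Fragment lengths differed between the sets. A fragment was inferred from plus-strand CpGs followed by minus-strand CpGs, and its length was the interval from the first to the last of them. The 1073 fragments with BN-only CpGs at both ends had a median length of 161 bases (quartiles 131 and 196), against 157 bases (quartiles 128 and 191) for all 99066 fragments covered in the 6 BN libraries. The 164 fragments with CD-only CpGs at both ends had a median of 97 bases (quartiles 79 and 113), against 113 bases (quartiles 88 and 140) for the 35873 covered in the 6 CD libraries. CD-only fragments were 0.656% of the fragments of at most 120 bases and 0.190% of those of at least 121 bases. BN-only fragments were 0.946% and 1.12% of these. The length profiles of the libraries differ between the strains in the same direction, and their part in this difference was not tested. Between 101 and 160 bases, where 89.5 to 97.5% of the fragments had a line in each library, 1.07% of covered fragments were BN-only (475 of 44310) and 0.393% were CD-only (69 of 17563). Within this class the libraries still differed, with relative coverages of 0.678 to 1.11 at 141 to 160 bases.

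**Figure D3:**
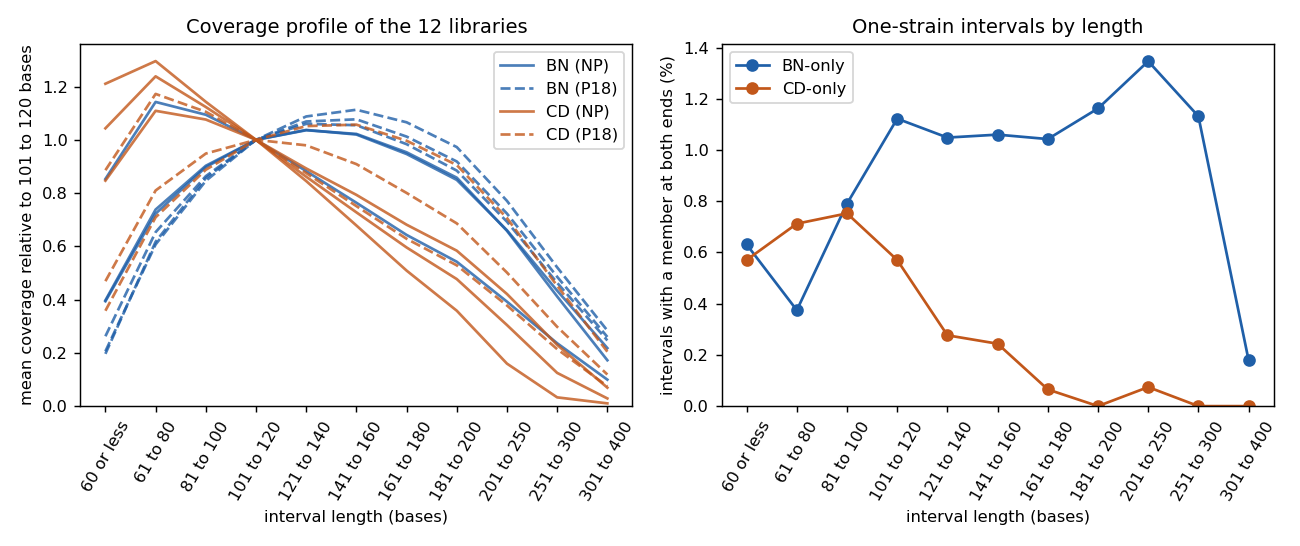
The left panel gives the mean coverage of inferred fragments in each of the 12 libraries, relative to fragments of 101 to 120 bases, by length in bases (BN blue, CD orange, solid NP, dashed P18). The right panel gives the percent of fragments covered in a strain that had a member at both ends, which reaches 1.35% at 201 to 250 bases in BN and 0.753% at 81 to 100 bases in CD.

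One-strain CpGs were more highly methylated than shared CpGs in every rat. Methylation level was not used to choose them. The mean level of BN-only CpGs was 71.2, 71.1 and 71.4% in the NP rats and 71.3, 71.0 and 71.3% in the P18 rats, or 71.2% ± 0.126 (SD, n = 6). Shared CpGs in the same 6 rats had a mean of 44.7% ± 0.0862. The mean level of CD-only CpGs was 64.6, 64.5 and 64.3% in the NP rats and 64.1, 63.6 and 64.2% in the P18 rats, or 64.2% ± 0.349 (SD, n = 6), against 44.5% ± 0.252 for shared CpGs. The gap was many times the spread between rats in both strains. Each rat's value averages all CpGs of a set, so that spread does not measure how levels vary over CpGs or clusters. By stage, the BN-only means were 71.2 ± 0.131 at NP and 71.2 ± 0.147 at P18, and the CD-only means were 64.5 ± 0.153 and 64.0 ± 0.302 (SD, n = 3 each).

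The difference lay largely in the unmethylated class. CpGs with a mean level under 10% were 11.5% of the BN-only and 17.8% of the CD-only set, but 40.7% of the shared CpGs in BN and 40.9% in CD. At the other end, 40.6% of BN-only and 33.8% of CD-only CpGs had a level of 90% or more, against 21.8% and 21.6% of shared CpGs. The percent of all reads over the members that were methylated was 57.2 to 64.8% in the BN rats, below the mean over CpGs, and 63.8 to 65.4% in the CD rats. In BN, 58 CpGs in 9 clusters had a mean coverage above 100, the deep cluster on chromosome 1 among them.

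Part of this difference went with cluster size. Single BN-only CpGs had a mean level of 75.2% and single CD-only CpGs one of 70.7%, near the 73.4 and 73.6% of single shared CpGs. In clusters of 6 to 10 CpGs the BN-only mean was 63.1% and the CD-only mean 50.1%, while shared CpGs were at 36.7 and 36.5%. In clusters of 11 or more the BN-only mean was 22.5% (lowest rat 21.4, highest rat 24.2), against 8.93% for shared CpGs. There the CD-only mean was 0.896% (lowest rat 0.553, highest rat 1.24), below the 8.83% of shared CpGs, though over only 98 CpGs in 8 clusters. The order of member and shared CpGs was thus not the same at every cluster size. Since a cluster counts only CpGs of its own set, equal sizes need not mean an equal density of CpGs.

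**Figure D4:**
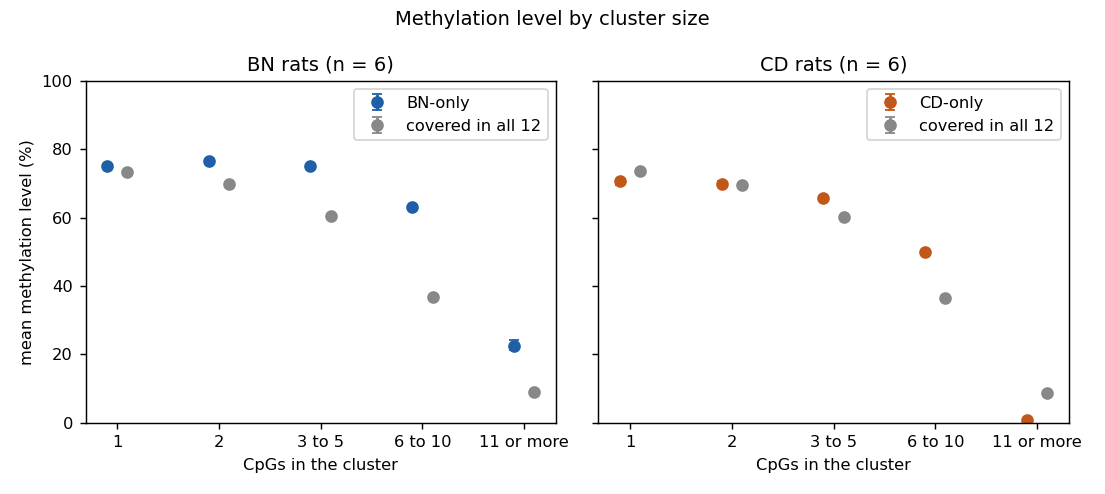
Points give the mean methylation level in percent of one-strain CpGs (coloured) and shared CpGs (grey) by the number of CpGs in the cluster, and bars run from the lowest to the highest of 6 rats (most are smaller than the points). The one-strain points lie well above the grey ones at 6 to 10 CpGs in both strains, and below them at 11 or more in CD.

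Level also varied with the surroundings. Members with no line of the other strain within 1000 bases had a mean level of 82.0% in BN (4530 CpGs) and 77.2% in CD (1839 CpGs). Those with such a line within 100 bases were at 57.4% (4299 CpGs) and 51.5% (2210 CpGs). Among all CpGs covered in BN, the mean level fell with each further CD library that had a line, from 71.2% at 0 libraries through 64.9% at 3 to 45.7% at 6. Among CpGs covered in CD it did not follow this order, with 64.2% at 0 libraries, 21.3% at 3 and 40.1% at 6.

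For some members the same CpG could be read in both strains, because the C on its opposite strand was covered at 10 or more in all 6 libraries of the other strain. This held for 310 BN-only CpGs (2.52% of the set) and 364 CD-only CpGs (7.34%). The 364 CD-only CpGs had a mean level of 55.7% in CD (rats 54.8 to 56.2), and their opposite strand had one of 56.9% in BN (rats 56.1 to 57.5). The levels lay within 10 points of each other at 88.2% of these CpGs, and 3 differed by more than 50 points. The 310 BN-only CpGs had a mean level of 58.3% in BN (rats 58.1 to 58.8), and their opposite strand had one of 54.3% in CD (rats 53.5 to 55.2). Here 79.7% lay within 10 points, and 16 differed by more than 50 points. For 24109 shared CpGs with the plus strand read in BN and the minus strand in CD, 94.8% lay within 10 points and 64 differed by more than 50. Where both strains could be read, most members thus had similar levels in both, with more exceptions among BN-only CpGs.

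The rats of a strain differed little at most members. The median SD over 6 rats was 5.59 points for BN-only CpGs and 5.73 points for CD-only CpGs, against 3.94 and 4.10 points for shared CpGs. Within a class of level the values were closer, with 8.17 against 7.72 points in BN and 8.40 against 8.23 points in CD at mean levels of 50 to 90%. In that class the median coverage was 22 for members of both sets, against 26 in BN and 24 in CD for shared CpGs. The SD includes the error of counting reads, and the part of coverage in it was not tested. The lowest and the highest rat were more than 50 points apart at 60 BN-only CpGs (0.488%) and 53 CD-only CpGs (1.07%), against 0.231% and 0.728% of shared CpGs.

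The effect of pregnancy was tested within each strain by comparing P18 with NP at every covered CpG, using a logistic model of the methylated reads with a dispersion moderated by limma. A differentially methylated CpG (DMC) had an adjusted p under 0.05 over all CpGs of the strain and a difference of pooled levels above 10 points. In BN, 1 of 881939 CpGs was a DMC (0.000113%), and 0 of the 12294 BN-only CpGs were. Their smallest adjusted p was 0.758 in the limma-moderated test, 583 (4.74%) had an unadjusted p under 0.05 against 3.72% of all CpGs tested, and 0 were called when the dispersion was left out. A count of 0 with 3 rats a group does not show that these CpGs stayed the same. In CD, 302 of 675439 CpGs were DMCs (0.0447%), and 7 of the 4959 CD-only CpGs were (0.141%), 2 higher and 5 lower at P18. An unadjusted p under 0.05 was found at 215 CD-only CpGs (4.34%), against 2.92% of all CpGs tested. Without CD-NP replicate 1, 4 of the 7 were still called, and without CD-P18 replicate 3 the count over all CpGs rose to 475. The median difference was 0 points for the members and for all CpGs in both strains. Whether pregnancy acts differently on the strains at these CpGs was not tested, since on its own DNA strand each was read in a single strain. The opposite strand, covered in the other strain at 310 BN-only and 364 CD-only CpGs, was not used for this.

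The levels of the NP rats were spread widely at 6 of the 7 DMCs, all but the first. The first, on the minus strand at chr2:44879269, was at 0% in all 3 NP rats and at 41.9, 7.14 and 27.3% in the P18 rats (adjusted p = 0.00339, limma-moderated logistic model). The second, at chr2:185318922 on the plus strand, was at 54.5, 0 and 42.9% in the NP rats and at 0% in all 3 P18 rats (adjusted p = 0.0140, limma). Its groups overlapped at 0%, unlike those of the first.

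The third, at chr4:90961460 on the plus strand, was at 100, 59.3 and 47.1% in the NP rats and at 0% in all 3 P18 rats, and its groups did not overlap (adjusted p = 9.21e-05, limma). The fourth, at chr4:179248352 on the plus strand, was at 94.4, 47.6 and 0% in the NP rats and at 0, 33.3 and 0% in the P18 rats (adjusted p = 0.0132, limma). NP replicate 3, at a coverage of 10, was the rat at 0%, and the groups overlapped.

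The fifth, at chr8:91518401 on the plus strand, was at 54.5, 93.8 and 62.5% in the NP rats and at 96.7, 100 and 95.7% in the P18 rats (adjusted p = 0.00591, limma). The sixth, at chr11:15160360 on the minus strand, was at 46.9, 93.8 and 50% in the NP rats and at 0% in all 3 P18 rats (adjusted p = 1.03e-05, limma). Neither of these overlapped between the stages. The seventh, at chr14:61684865 on the minus strand, was at 0, 88.2 and 87.5% in the NP rats and at 0, 5.26 and 0% in the P18 rats, and NP replicate 1 overlapped with the P18 rats (adjusted p = 5.53e-04, limma).

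The CD-only CpGs beside these 7 differed little between the stages. Each of the 7 had at least 1 other CD-only CpG within 100 bases, the nearest at 3 to 28 bases. The P18 minus NP difference at any of these neighbours was at most 7.37 points in either direction, while the 7 DMCs differed by 29.9 to 66.0 points. Single libraries carried much of some differences. Without CD-NP replicate 1 the difference went from -58.3 to -24.9 points at chr4:179248352, from -35.3 to -20.7 points at chr2:185318922 and from 31.3 to 19.3 points at chr8:91518401, each with an adjusted p of 1 (limma). Without CD-P18 replicate 1 it went from 29.9 to 19.4 points at chr2:44879269 (adjusted p = 0.218, limma). The coverage behind a level was 10 to 47 reads. These tests took most of their dispersion from other CpGs of the strain (56.9 prior degrees of freedom in CD). With 3 rats in a group, the p-values therefore say little about the spread between rats at a single CpG.

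**Figure D5:**
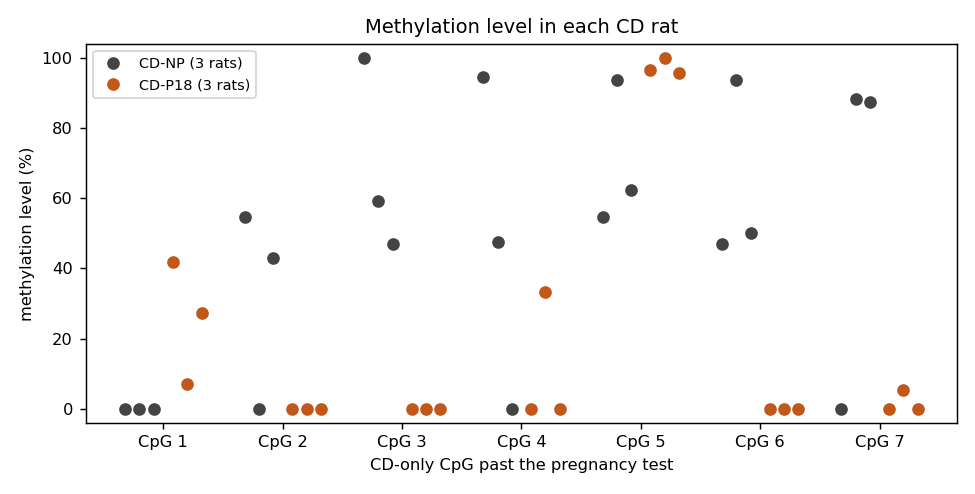
Points give the methylation level in percent in each CD rat at the 7 CD-only CpGs past the pregnancy test, in the order of the text (grey NP, orange P18, 3 rats each). At 4 of the 7 (CpGs 1, 3, 5 and 6) the groups do not overlap, and at CpGs 2, 3 and 6 all P18 rats are at 0%.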

How the data were processed

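For RRBS, the authors trimmed single reads of 75 bases with Trim Galore, removed duplicates by molecular tags, aligned to Rnor6.0 with Bismark and deposited 1 methylKit list per library. Versions named in the submitters' processing notes include Trim Galore 0.4.5 and methylKit 1.16.1. Each deposited line gives a CpG on 1 strand, its coverage (the count of reads over it) and how many percent of them were methylated and unmethylated. Coverage reflects amplification and fragment selection as well as genotype, and a C-to-T variant is read as an unmethylated C. The gene counts of the RNA-seq libraries, deposited by the authors, were not used here.

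Methylated reads were recovered as coverage times percent, rounded (at most 0.212 from a whole number). Groups came from the deposited labels. The members and lists were chosen with earlier results of these data known. Named items were, per strain, the 5 clusters with the most CpGs, the 3 longest stretches and every member past the pregnancy test. The gene parts of that rule and the strain comparison of gene expression were not applied, because CpGs could not be linked to genes.

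The pregnancy test was a binomial model per CpG, with Pearson dispersion moderated by limma 3.58.1 in R 4.3.3, never set under 1, an F test and Benjamini-Hochberg adjustment. It was tested on simulated data. In fragments, CpGs of a strand at most 75 bases apart formed one end, and intervals of up to 400 bases were kept. Alternatives were other coverage minimums, gaps, neighbourhoods, weights and dispersions, a replicate block and each library left out. Python 3.11.15, numpy 2.4.6 and pandas 2.3.3 were used. The totals cover counting error only.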

Additional observations from a re-analysis of the deposited data

Results flagged for a closer look

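BN-NP replicate 3 stood apart from the other 5 BN libraries in its fragment lengths. Relative to fragments of 101 to 120 bases, its coverage of fragments of 60 bases or less was 0.853, the highest in BN, and its coverage of fragments of 201 to 250 bases was 0.392, the lowest. Both gaps to the next library, as a share of the range, exceeded Dixon's critical value for 6 samples, among 22 groups of 6 libraries examined. Chance alone passes about 1 such group in 20, and both values come from one library. Without it the BN-only CpGs numbered 14170, against 12294 with it, though leaving out any library cannot lower this count. The rule was also applied to chromosome X, which the sets above leave out. There 205 of 16895 covered CpGs were BN-only (1.21%) and 46 of 12489 were CD-only (0.368%).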

How the results depend on the processing

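At a coverage of at least 5 there were 23943 BN-only and 12299 CD-only CpGs (1.57% and 0.890% of those covered), and at a coverage of at least 20 there were 3062 and 394 (1.49% and 0.701%), so the counts moved with the minimum far more than the shares. With each library left out in turn, BN-only CpGs numbered 12364 to 14170 in 5454 to 6293 clusters. CD-only CpGs numbered 4976 to 7192 in 2262 to 3213 clusters. The counts were highest without BN-NP replicate 3 and CD-NP replicate 3, respectively. Leaving out a library only relaxes the rule, so every member was kept and the numbers of CpGs could not fall. The BN-only mean level was 73.4% at a coverage of at least 20, 62.4% over pooled reads, 74.7% with each cluster counted once and 70.6 to 71.4% with a library left out. The CD-only mean level was 63.1% at a coverage of at least 20, 68.3% with each cluster counted once and 62.9 to 64.5% with a library left out.

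Pregnancy DMCs in BN numbered 10 without overdispersion and 1 to 3 with a library left out, with 0 BN-only CpGs among them throughout. In CD they numbered 6 at a coverage of at least 20, 980 without overdispersion and 278 to 475 with a library left out, of which 0, 12 and 4 to 10 were CD-only CpGs. None of the 7 named CpGs had a coverage of 20 in all 6 rats. All 7 kept the direction of their difference with each CD library left out. The fits without overdispersion and with a replicate block use the same pooled difference, so they could not change it. Calls were lost at 3 when CD-NP replicate 1 was left out and at 3, 2 and 1 when replicate 1, 2 or 3 of CD-P18 was. The cause was not tested.

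Replicate numbers are shared between groups, but same-numbered NP and P18 rats did not deviate together: the correlations of their deviations were -0.0139 to 0.0180. With a replicate block, 1 DMC in BN and 312 in CD were called, with 0 and 7 members, and CpG 4 of the named ones was no longer called (adjusted p = 0.154, limma) while another member was. The strain comparison of gene expression and its alternatives were not run, since no CpG could be linked to a gene. Depth limits the sets directly, since a CpG with up to 4 reads in the other strain counts as absent.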
